A study of Homo sapiens with 2 samples.

Results

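DNA replication and S phase genes are described here in LP-1 cells, a long-established line from a human multiple myeloma, with and without added HIF-2α. This protein, the product of EPAS1, is a transcription factor subunit that is stabilised when oxygen is low. The set is a list of 41 named genes for the licensing, firing and copying of DNA, chosen by gene name. All 41 had a probe set with a single gene symbol in the array annotation, out of 18377 genes with such a probe set. Where a gene had several, the brightest was taken, which concerned 1 gene of the set, UHRF1. All 41 also passed the filter on dim signals, a log2 signal of at least 4.01 on the brighter array, as did 11469 genes in all.

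RNA was measured on 2 whole-transcript Affymetrix arrays. The vector control array came from cells with pRUF-IRES-GFP, which holds no insert. The HIF2A array came from cells with pRUF-IRES-GFP-HIF2A, which adds the full-length human HIF-2α cDNA to that vector. Both were stable lines of infected cells. The labels do not say whether each was 1 clone or a pool, nor the oxygen level or growth state of the cultures. With 1 array a group there is no replicate, so no SE, test across samples or p-value can be given, and every difference below describes these 2 arrays. The precision is limited by that number.

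Each value is a log2 signal of a probe set, and a difference is HIF2A minus vector control on that scale. Signals are compared between the arrays for 1 gene at a time, since probe sets of different genes do not share a scale. EPAS1 had signals of 3.70 and 9.05 in the vector control and HIF2A arrays, a 40.8-fold difference in the direction of the labels. Of 10 plasma cell marker genes 9 passed the filter on both arrays, CD27 being the exception. The mean signal of the 10 was 7.65 in the vector control and 7.39 in the HIF2A array. Within them SLAMF7 was 5.24-fold lower, at 6.63 and 4.24, and TNFRSF17 2.04-fold lower, at 8.71 and 7.68. Of 21 marker genes of B cells, T and NK cells, myeloid cells and stroma 4 did so, namely CD8A, NKG7, CD14 and COL1A1. The mean signal of the B cell markers was 3.32 in the vector control and 3.24 in the HIF2A array, of the T and NK cell markers 3.57 and 3.65, of the myeloid markers 3.31 and 3.44, and of the stromal markers 3.97 and 3.95. The 95th percentile of 339 olfactory receptor genes, taken as background, was 3.58 in both arrays.

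DNA replication starts at origins that are prepared in G1. The origin recognition complex, CDC6 and CDT1 load the ring of MCM2 to MCM7 onto DNA. In S phase the kinases CDC7-DBF4 and CDK2 with cyclin E add CDC45 and GINS to that ring, which turns it into the working helicase. Polymerases with the sliding clamp PCNA then copy the strands. Many of these genes are transcribed together at the end of G1 by E2F factors, so that their joint RNA level follows how many cells of a culture are in late G1 and S phase. HIF factors are known from other cells to touch the cycle in opposite ways, HIF-1α by restraining MYC and HIF-2α by favouring it. In bulk RNA a change in the share of cells in S phase and a change in RNA per cell cannot be told apart.

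The replication genes did not share a direction in these arrays. In the HIF2A array 15 of the 41 had a higher signal and 26 a lower one, against 52.6% higher and 46.1% lower among all genes past the filter. Their median difference was -0.11, with quartiles of -0.33 and 0.17, beside a median of 0.03 and quartiles of -0.2 and 0.26 for all 11469 genes. Only MCM3 was at least 1.5-fold higher, a size that 5.67% of all genes reached in that direction. At least 1.5-fold lower were 5 genes, CCNE2, CDC7, PCNA, RFC2 and POLE2, where 4.76% of all genes were. In both directions together this is 14.6% of the set and 10.4% of all genes past the filter. POLE2 was counted with a signal in the background range. With values raised to the background level 4 genes were lower, beside 4.53% of all genes. With 32 added to each linear value, which shrinks dim signals, 0 of the 41 were higher and 0 lower by 1.5-fold, as were 1.21% and 1.25% of all genes. A filter at the 75th percentile of signals kept 36 of the 41. Of these 3 were lower and 1 higher by 1.5-fold, beside 5.82% and 6.95% of the 6100 genes past that filter. None of the 41 was 2-fold apart, beside 1.44% of all genes. The robust SD of the differences, the scaled median absolute deviation, was 0.34 over all genes and 0.42 over the 41.

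**Figure D1:**
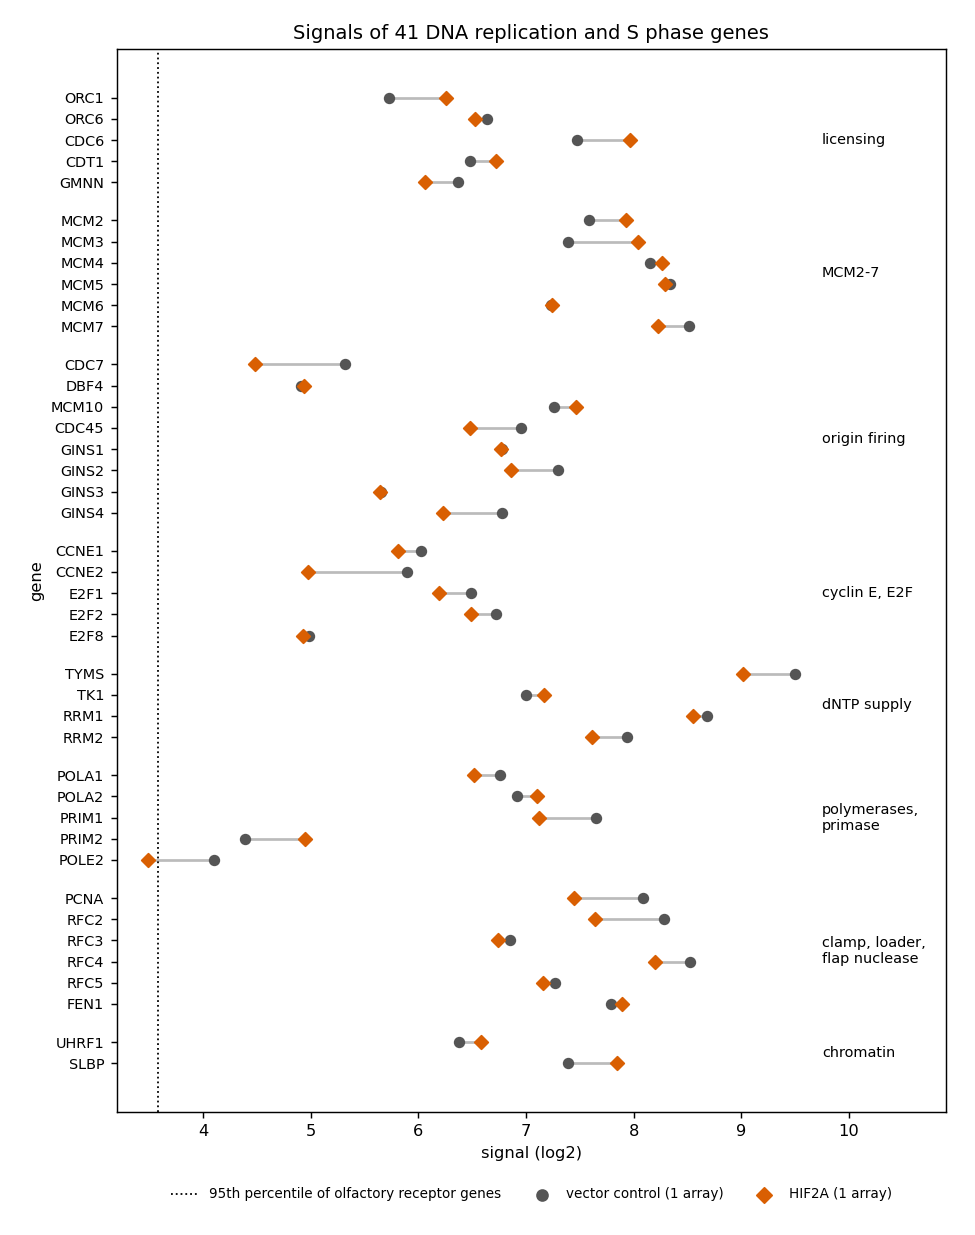
Signals (log2) of the 41 genes in the vector control (grey circles) and HIF2A (orange diamonds) arrays, 1 array each, grouped by role. The widest gaps are those of CCNE2 and CDC7, lower in the HIF2A array, and POLE2 alone reaches the background line, in the HIF2A array.

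Cyclin E and the E2F factors drive the step from G1 into S phase, cyclin E by activating CDK2. CCNE2, which encodes cyclin E2, showed a signal of 5.89 in the vector control and 4.97 in the HIF2A array. The gap of -0.92, or 1.89-fold lower, was the largest in size among the 41 on the deposited scale and the 118th lowest of all genes past the filter. With 32 added to each linear value it came to -0.53, under 1.5-fold and smaller in size than those of RFC2, PCNA and MCM3, at -0.57, -0.56 and 0.56. CCNE1, which encodes the related cyclin E1, had 6.02 and 5.81, a difference of -0.21. The E2F activator genes E2F1 and E2F2 had 6.49 against 6.19 and 6.72 against 6.49 in the vector control and HIF2A arrays. E2F8, an atypical E2F that represses these targets, had 4.98 and 4.93. All 5 genes of this group were thus lower in the HIF2A array, 4 of them by less than the robust SD of all genes, and the group's median was -0.23. Over 8 E2F genes, including those outside the set, 3 were higher and 5 lower, with a median of -0.075.

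Licensing factors had 3 higher and 2 lower genes. CDC6, which helps load the helicase, showed a signal of 7.47 in the vector control and 7.97 in HIF2A, for a difference of 0.50. ORC1, the largest subunit of the origin recognition complex, had 5.73 and 6.26, and CDT1, which brings the helicase to the origin, had 6.48 and 6.72. The subunit gene ORC6 had 6.64 and 6.53. GMNN encodes geminin, which binds CDT1 and blocks a further round of licensing, and had 6.37 and 6.06, a difference of -0.31. The 3 higher genes of this group act in loading the helicase, as does ORC6, which was lower along with the inhibitor GMNN. Every difference of the group was under 1.5-fold. Over the 6 genes of the origin recognition complex, including those outside the set, 3 were higher and 3 lower, with a median of 0.015.

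The helicase ring itself showed unlike differences among its subunit genes. MCM3 had 7.39 in the vector control and 8.04 in HIF2A, for a difference of 0.65 or 1.57-fold, the 454th highest of all genes past the filter. MCM2 had 7.59 and 7.93, and MCM4 had 8.15 and 8.26. MCM5 and MCM6 were nearly equal in both arrays, with 8.34 and 8.29 for MCM5 and 7.23 and 7.24 for MCM6. MCM7 was the lowest of the 6 by difference, at 8.51 and 8.23, or -0.28. The gap between the differences of MCM3 and MCM7, the highest and the lowest of the 6, was 0.93 log2 units.

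Among the genes that fire a licensed origin, those for CDC45 and for a part of GINS were lower. CDC45 showed a signal of 6.95 in the vector control and 6.48 in HIF2A, for a difference of -0.47. GINS2 had 7.30 and 6.86, and GINS4 had 6.78 and 6.23, differences of -0.44 and -0.55. The remaining GINS subunit genes were nearly equal between the arrays, GINS1 at 6.78 and 6.77 and GINS3 at 5.65 and 5.64. MCM10, which acts when the helicase starts to unwind, had 7.26 and 7.46. Over the 11 subunit genes of the complete helicase, the ring with CDC45 and GINS, 4 were higher and 7 lower, with a median of -0.01.

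CDC7, the catalytic subunit of the kinase that phosphorylates the MCM ring, had the second largest difference of the set on the deposited scale. Its signal was 5.32 in the vector control and 4.48 in HIF2A, for a difference of -0.84 or 1.79-fold lower, the 159th lowest of all genes past the filter. DBF4, the subunit that activates this kinase, had 4.91 and 4.94. With 32 added to each linear value the difference of CDC7 came to -0.41, under 1.5-fold and behind 8 other genes of the set in size. On the deposited scale it lay 0.87 log2 units below that of its partner. DBF4B, a second activating subunit that was not in the set, had 5.12 and 4.77.

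**Figure D2:**
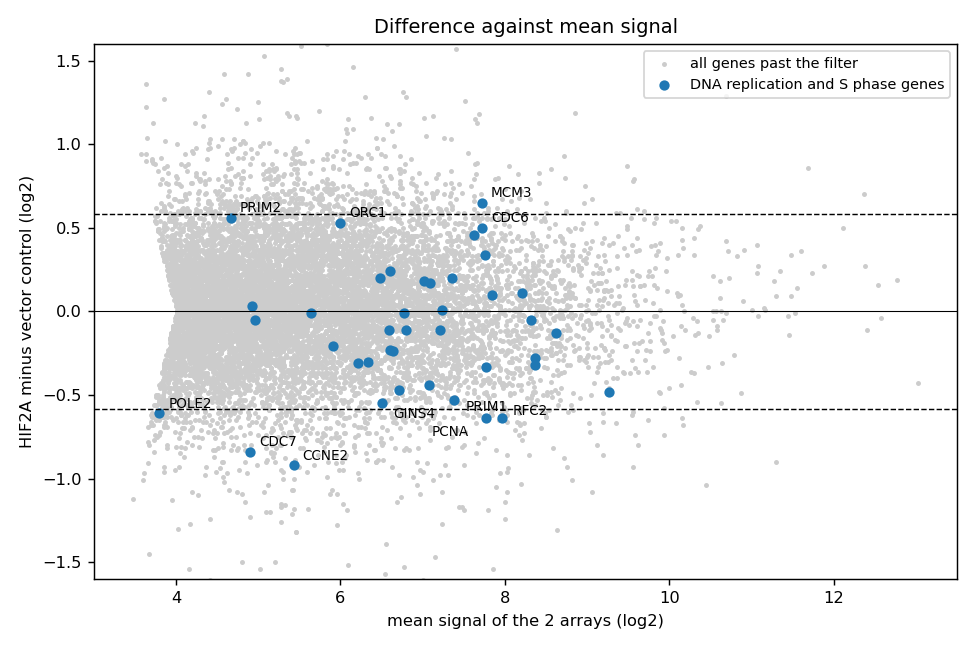
Difference (HIF2A minus vector control, log2) against the mean signal of the 2 arrays (log2), with the 41 genes in blue over all 11469 genes past the filter in grey and dashed lines at 1.5-fold. Genes with a difference of at least 0.5 in size are named; 27 grey genes lie beyond the vertical axis, and MCM3 alone of the 41 is above the upper dashed line.

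The genes of the replication clamp and its loader were mostly lower. PCNA encodes the ring that holds polymerases on DNA. It showed a signal of 8.09 in the vector control and 7.45 in HIF2A, for a difference of -0.64 or 1.56-fold lower, at rank 396 from the lowest. RFC2, a small subunit of the clamp loader replication factor C, had 8.28 and 7.64, the same difference of -0.64. The other small subunit genes differed less, RFC3 at 6.85 and 6.74, RFC4 at 8.52 and 8.20, and RFC5 at 7.27 and 7.16. FEN1, the nuclease that trims Okazaki fragments, had 7.79 and 7.89, the 1 higher gene among the 6 of this group on the deposited scale. RFC1, the large subunit and not in the set, was higher too, at 6.37 and 6.80, a difference of 0.43. PCNA has pseudogenes, and cross-hybridization of its probes was not analysed here.

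Polymerase genes differed within each enzyme. The primase subunit genes, whose products make the RNA primer together, pointed in opposite directions. PRIM1, the catalytic subunit, had 7.65 in the vector control and 7.12 in HIF2A, for a difference of -0.53. PRIM2, the large subunit, had 4.39 and 4.95, a difference of 0.56. This leaves a gap of 1.09 log2 units, the widest among the 8 pairs of partners compared on the deposited scale. Those pairs were picked after the values were seen and leave out other partners. Gaps between pairs over all genes were not counted, so the rank holds for these 8 only. With 32 added to each linear value PRIM1 had -0.44 and PRIM2 0.25. MCM3 and MCM7 then lay further apart, at 0.56 and -0.26. PRIM2 has a near copy in the genome, and cross-hybridization was not analysed here. The polymerase alpha subunit genes that work with primase were closer, POLA1 at 6.76 and 6.52 and POLA2 at 6.92 and 7.10.

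POLE2, the second subunit of the leading-strand polymerase epsilon, had 4.10 in the vector control and 3.49 in the HIF2A array. The latter lies below the background level of 3.58, so its fold is given as a bound, at least 1.43-fold lower, and the 1.5-fold call rests on a signal in the background range. Of the polymerase epsilon genes outside the set, POLE4 had 7.51 and 6.60, a difference of -0.91. The catalytic subunit gene POLE had 6.25 and 6.27, and POLE3 had 7.07 and 7.17.

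Enzymes of deoxynucleotide supply were lower in 3 of 4 genes, each by less than 1.5-fold. TYMS, thymidylate synthase, showed a signal of 9.5 in the vector control and 9.02 in HIF2A, for a difference of -0.48. RRM2, the S phase subunit of ribonucleotide reductase, had 7.94 and 7.61, and its partner RRM1 had 8.68 and 8.55. TK1, the thymidine kinase of S phase cells, had 7.0 and 7.17. RRM2B, a p53-induced form of the small subunit and not in the set, was higher, at 4.88 and 5.27.

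UHRF1 and SLBP link replication to chromatin, and both were higher. SLBP, which binds the end of replication-dependent histone messages, had 7.39 in the vector control and 7.85 in HIF2A, for a difference of 0.46. UHRF1, which brings the maintenance DNA methyltransferase to replicated DNA, had 6.38 and 6.58 on its brighter probe set. Its dimmer probe set had 3.87 and 4.07, the same difference of 0.20. After the median of 20 neighbouring genes was subtracted, SLBP had 0.26 and UHRF1 0.04. Of 13 replication-coupled chromatin genes outside the set, described below, 11 were lower, beside 46.1% of all genes past the filter.

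E2F motifs in the promoters of these genes were looked up, since E2F is the factor they are best known to share. RefSeq promoters (GRCh38.p14), from 250 bases before to 50 after the first listed start, were matched by symbol for 36 of the 41 genes; CCNE2, E2F8, GINS4, MCM4 and MCM5 were not matched. An E2F motif, searched on both strands as the letters TTGGCGC with the variant forms TTCGCGC and, as a further form, TTCCCGC, was present in 25 of the 36, or 69.4%. It was present in 18.1% of 9140 promoters of genes past the filter and in 11.2% of all 27305 promoters of the table. The motif stood in 8 of the 14 matched genes that were higher in the HIF2A array and in 17 of the 22 that were lower. The CCAAT box, searched as CCAAT, was present in 18 of the 36 and in 36.3% of genes past the filter. The core of the hypoxia response element, searched as ACGTG, was present in 27.8% and 27.2%. The CHR motif of mitosis genes, searched as TTTGAA, was present in 2 of the 36 and in 9.2% of genes past the filter. TTGGCGC and the reverse of CCAAT can share letters where they adjoin. A match is a description of letters, not a bound site. The 120 bases before the start are shown for MCM3, the gene at least 1.5-fold higher, and for CDC7 and PCNA, both at least 1.5-fold lower, 5′ to 3′ on the strand of the gene with E2F motifs in capitals.
MCM3, chr6:52284743-52284862, minus strand: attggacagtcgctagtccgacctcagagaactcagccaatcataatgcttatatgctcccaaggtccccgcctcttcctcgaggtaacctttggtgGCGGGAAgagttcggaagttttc
CDC7, chr1:91500731-91500850, plus strand: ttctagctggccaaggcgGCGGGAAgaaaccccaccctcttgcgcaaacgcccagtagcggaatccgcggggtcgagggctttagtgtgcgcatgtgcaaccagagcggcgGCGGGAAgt
PCNA, chr20:5126623-5126742, minus strand: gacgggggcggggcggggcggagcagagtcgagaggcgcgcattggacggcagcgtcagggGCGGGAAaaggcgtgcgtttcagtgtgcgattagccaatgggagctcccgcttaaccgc
The same letters, GCGGGAA, stand before the start of all 3 genes. In MCM3 they begin 23 bases before the start, in PCNA 59 bases before it, and in CDC7 at 102 and at 9 bases before it. The motif search therefore gave the same letters for a gene that was higher and for 2 that were lower. For RFC2 and POLE2, also at least 1.5-fold lower, no E2F motif was found in these 120 bases, and each had 1 in the longer promoter.

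Other genes of replication and the G1/S switch, from 5 lists by function that do not include the 41, had 107 members past the filter. Of these 50 were higher and 56 lower, 1 was higher and 5 were lower by at least 1.5-fold, beside 5.67% and 4.76% of all genes, and the median difference was -0.03. The count of 5 lower genes stayed at 5 under quantile normalization and came to 6 after median centring and after loess centring. It came to 3 after neighbours were subtracted and to 1 with 32 added. The 37 genes of other fork and origin machinery had a median of -0.03. POLE4, RPA2 and MTBP were lowest, with differences of -0.91, -0.74 and -0.59, and CHTF8, POLD1 and RFC1 highest, with 0.79, 0.45 and 0.43. RPA2 encodes a subunit of the protein that coats single-stranded DNA. All 3 genes of that protein were lower, with RPA1 at -0.06 and RPA3 at -0.35. Among 19 genes of fork protection and the S phase checkpoint, with a median of 0.03, TIPIN, EXO1 and HUS1 had -0.73, -0.43 and -0.40, and RAD17, RAD1 and WEE1 had 0.50, 0.36 and 0.33. TIPIN encodes a fork-stabilizing partner of TIMELESS, which had a difference of 0.16.

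The 24 genes of G1/S control were 13 higher and 11 lower, around a median of 0.05. E2F7, CCND3 and TFDP2 were the highest, with differences of 0.56, 0.52 and 0.42, the last shared by TFDP1, and E2F5, CCNA2 and RBL2 the lowest, with -0.71, -0.57 and -0.52. CCNA2 encodes cyclin A2, which takes over CDK2 from cyclin E in S phase. CDK2 itself had signals of 6.75 in the vector control and 6.70 in the HIF2A array. The 14 genes of other nucleotide supply had a median of 0.025 and none was 1.5-fold apart, with DUT at -0.40, ATIC at -0.37 and CTPS1 at -0.21 lowest and SAMHD1 at 0.45, PAICS at 0.40 and RRM2B at 0.39 highest. Under quantile normalization and loess centring the medians for fork protection and nucleotide supply came to just below 0, and that for G1/S control came to -0.06, with 11 higher and 13 lower, after neighbours were subtracted. The direction of these 3 lists is not settled.

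Replication-coupled chromatin genes, which reassemble nucleosomes and copy DNA methylation behind the fork, had the lowest median of the 5 lists, -0.30. Of these 13 genes 11 were lower by any amount, beside 46.1% of all genes past the filter. None was 1.5-fold apart. The histone chaperone gene ASF1A had 8.80 in the vector control and 8.32 in the HIF2A array. HAT1, which acetylates new histone H4, had 6.45 and 6.05, and RBBP7 had 9.56 and 9.16. CHAF1B, RBBP4 and HELLS had 0.33, 0.14 and -0.03.

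Mitosis genes, which peak later in the cycle, were taken as the comparison closest to the replication genes. Of 43 past the filter 23 were higher and 19 lower, with a median of 0.03, which equals that of all genes. By at least 1.5-fold 4 were higher and 4 lower, beside 5.67% and 4.76% of all genes, among them KIF20A with a difference of 0.85, BUB1 with 0.72 and MAD2L1 with -0.77. These counts came to 2 and 2 after the median of 20 neighbouring genes was subtracted, which left KIF20A at 0.57 and MAD2L1 at -0.54, under 1.5-fold, to 2 and 4 after loess centring, and to 1 and 1 with 32 added. The median of the replication genes was thus lower than that of the mitosis genes, and with 1 array a group this gap has no test. As the plot by group shows, both sets spread widely around 0.

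**Figure D3:**
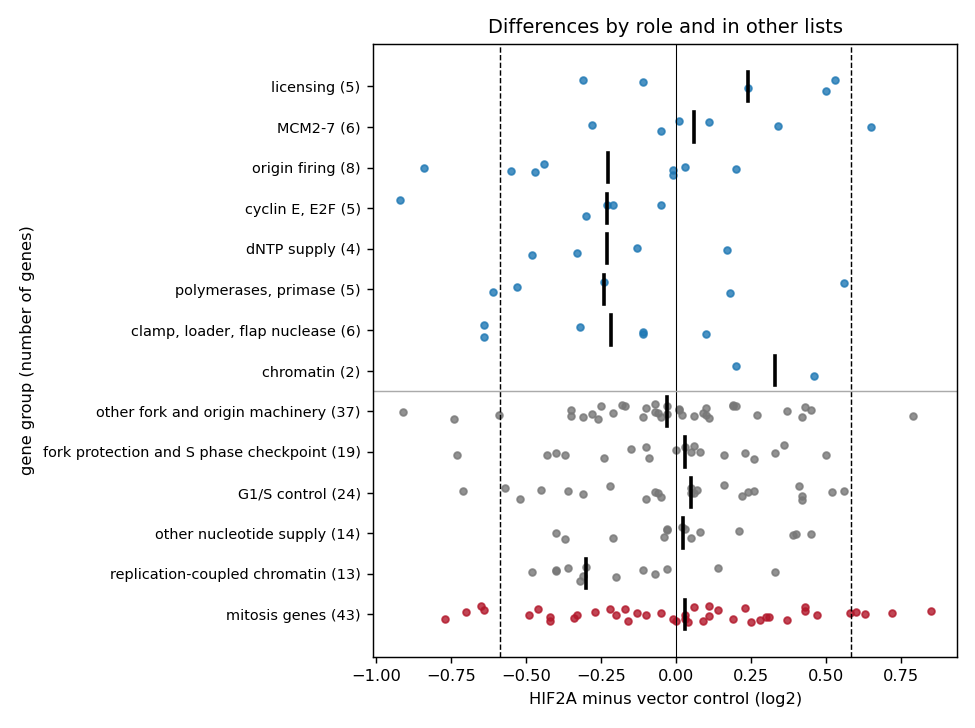
Differences (HIF2A minus vector control, log2) of single genes by role for the 41 genes (blue, above the line) and in 5 other lists (grey) and mitosis genes (red). Points are genes with vertical jitter only, black bars are medians and dashed lines mark 1.5-fold. The medians of 5 roles lie between -0.24 and -0.215, and those of licensing, MCM2 to MCM7 and chromatin (2 genes) above 0. That of the replication-coupled chromatin list lies at -0.3.

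Each gene was also set beside the 20 nearest measured genes on its chromosome. Whether neighbours differ in the same direction more often than distant genes was not tested. For 8 of the 41 the median of these neighbours was at least 0.2 in size. The share of all genes with such neighbours was not counted, so whether 8 of 41 is usual on these arrays is not known. DBF4, MCM4, MCM10 and GINS1 lay among lower neighbours, with medians of -0.31, -0.24, -0.23 and -0.29, and POLA2 among higher ones, with 0.47. CDC6, MCM5 and SLBP had neighbours at 0.20. The 6 genes that were 1.5-fold apart lay among neighbours with medians between -0.08 and 0.06, which for CCNE2 was 0.01, for CDC7 0.06 and for MCM3 -0.08. After subtraction of the neighbours CCNE2 had -0.93, CDC7 -0.90 and MCM3 0.73. The sign changed for 5 of the 41. POLA2 then had -0.29 in place of 0.18, FEN1 -0.02 in place of 0.10 and MCM6 -0.06 in place of 0.01. ORC6 had 0.05 in place of -0.11 and GINS1 0.28 in place of -0.01. By role, all 6 genes of the clamp group were then lower, and licensing factors had 4 higher and 1 lower. GINS had 1 higher and 3 lower. Among the genes of other lists named above, CCNA2, MAD2L1, HUS1, RPA3 and MTBP lay among neighbours with medians of -0.30, -0.24, -0.24, -0.22 and -0.20, and KIF20A and POLE among neighbours at 0.28 and 0.24. After subtraction POLE had -0.22 in place of 0.02. The part of neighbours in these differences was not tested.

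**Figure D4:**
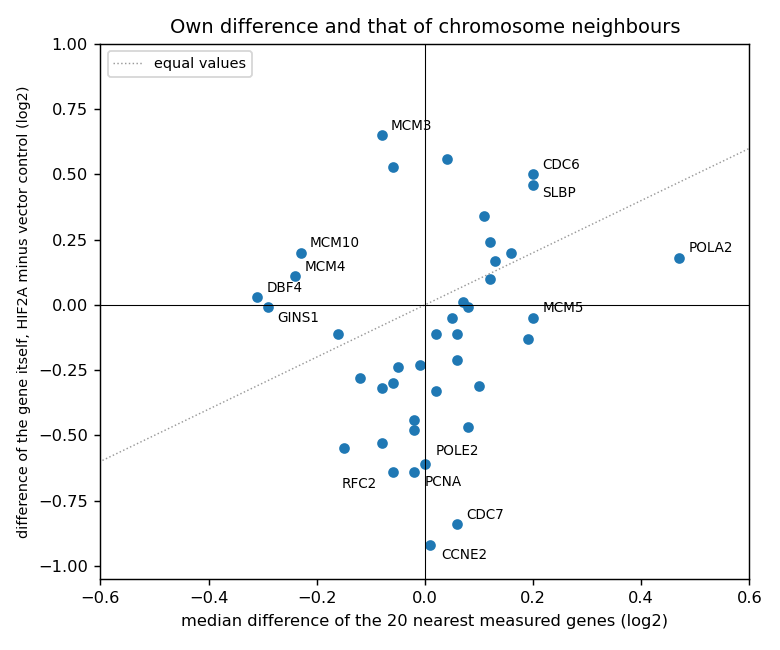
Difference of each of the 41 genes (vertical, log2) against the median difference of its 20 nearest measured neighbours on the chromosome (horizontal, log2), with a dotted line where both are equal. CCNE2, CDC7, PCNA, POLE2 and RFC2 lie near 0 on the horizontal axis and POLA2 lies farthest to the right, at 0.47.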

How the data were processed

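The authors deposited log2 signals per probe set for 2 arrays, made in Affymetrix Expression Console, as the submitters' processing notes say. Its version, algorithm and background correction are not stated there. That the scale is log2 was inferred: the highest value, 13.97, is above 11.09, which a natural log of a 16-bit reading cannot pass. Of 28869 probe sets 19310 carry 1 gene symbol, updated by Entrez number through RefSeq (19279 matched), 1752 carry several and were left out, and 7807 are unnamed. The brightest probe set per gene was used. A gene passed when either array was at 4.01 or above, the middle value of all probe sets' means of both arrays. All 41 genes may be named, of every other list up to 3 at each end, and of complexes the partners of a member, chosen after values were seen. The members and lists were chosen with earlier results of these data known. Motifs and neighbours used GRCh38.p14 tables. The code was tested on simulated data. Python 3.11.15, numpy 2.4.6, pandas 2.3.3, statsmodels 0.14.6 and matplotlib 3.10.9 were used.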

Additional observations from a re-analysis of the deposited data

How the results depend on the processing

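With 1 array a group no replicate could be left out, and no paired analysis was possible because each group has a single array. The median difference of the 41 genes stayed between -0.17 and -0.09 in the 10 other settings, and the count of genes 2-fold apart stayed at 0. Without a filter, with the mean or dimmest probe set, and with the background floor, the median stayed at -0.11. Those settings could hardly move it. All 41 passed the filter, only UHRF1 had several probe sets and only POLE2 lay below background. Adding 32 to each linear value, which shrinks dim signals by construction, left 0 genes higher and 0 lower by 1.5-fold. The filter at the 75th percentile kept 36 of the 41 genes, of which 3 were at least 1.5-fold lower, beside 5.82% of all genes past it. Subtracting neighbours gave 2 genes at least 1.5-fold higher, MCM3 and ORC1, beside 4.86% of all genes. The count of lower genes was 5 under quantile normalization, median centring and loess centring, beside 5.09%, 5.37% and 5.19% of all genes. After quantile normalization and loess centring GINS4 stood in place of POLE2, with -0.60 and -0.54 after loess centring. With a floor at the olfactory receptor level the count was 4, beside 4.53% of all genes, with POLE2 at -0.52. Of 328 values of single genes 8 changed sign, none of them for a gene 1.5-fold apart; only UHRF1 could change with the probe set.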

Other observations

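Some replication genes share a start region with another gene on the opposite strand. RefSeq starts (GRCh38.p14) were at hand for 36 of the 41, and CCNE2, E2F8, GINS4, MCM4 and MCM5 were not searched. Of the 36 genes, 8 had a measured gene that starts within 1000 bases upstream in the other direction. All 8 of these partners passed the filter. The differences of both genes had the same sign in 3 pairs and opposite signs in 5. The same shares over all such pairs on the arrays were not counted, so these counts describe the 8 pairs only. PCNA had -0.64 and its partner CDS2, a phospholipid synthesis gene, had 0.31, with signals of 6.38 in the vector control and 6.69 in the HIF2A array. ORC1 had 0.53 and PRPF38A, a splicing factor gene, had -0.11. DBF4 had 0.03 and SLC25A40, a mitochondrial carrier gene, had -0.56, with signals of 5.87 and 5.31. The difference of DBF4 came to 0.0 after median centring and to -0.01 after loess centring, so the sign in its pair is not settled. MCM7 and AP4M1 were both lower, at -0.28 and -0.14, and MCM2 and TPRA1 both higher, at 0.34 and 0.11. These pairs were looked up after the values were seen, and with 1 array a group none of the differences has a test.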
